A study of Mus musculus with 3 samples.

Results

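The 10 CC chemokine genes of mouse chromosome 11 described here lie in 2 groups, and Ccl1 of the same chromosome is not among them. Ccl2, Ccl7, Ccl11, Ccl12 and Ccl8 form one group of 5, and Ccl5, Ccl9, Ccl6, Ccl3 and Ccl4 form the other group of 5, with 1.37 Mb between their outer windows. The 10 genes were taken by name among 21887 protein-coding genes, and all 10 matched the annotation. Every accessible region in a gene span with 20 kb on each side was counted once and given to the nearest of the 10 genes. This gave 53 of 182233 regions in the 0 h library, 56 of 178055 in the 6 h library and 61 of 145044 in the 72 h library. The genes were named with the strong regions gained near Ccl6 at 72 h already known, so they count as selected on the region numbers and folds of these libraries, and their values are a description that carries no test.

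The assay was ATAC-seq, which uses a transposase to place sequencing adapters in open chromatin. The cells were the Ecomg myeloid progenitor line of the mouse with the genotype FKBP12F36V_NIPBL. NIPBL loads the cohesin ring on chromatin, and the FKBP12F36V tag lets the small molecule dTAG direct the tagged protein to breakdown. All 3 libraries came from cells of this genotype in medium with GM-CSF and estradiol, each from 50000 cells: 1 library before dTAG (0 h), 1 after 6 h of dTAG and 1 after 72 h of dTAG. Whether the line is a single clone is not given in the sources used here. NIPBL protein was not measured in the data used here, and dTAG, time in culture and library cannot be told apart. With 1 library per time no difference between times has a replicate check.

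CC chemokines are small secreted proteins with a pair of adjacent cysteines near the amino end, and they steer leukocytes through G protein-coupled receptors. Many members of the family arose by local gene duplication, which left clusters of related genes. Ccl2, Ccl7, Ccl12 and Ccl8 belong to the monocyte chemoattractant group and Ccl11 is eotaxin, which draws eosinophils. Ccl3, Ccl4 and Ccl5 are inflammatory ligands that draw monocytes and T cells, and Ccl6 and Ccl9 are ligands of Ccr1 that myeloid cells of the mouse make without a strong stimulus.

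The sequences just before 5 transcription starts of these segments are printed as examples of starts with and without a region: at Ccl3, Ccl6, Ccl9 and the noncoding gene Gm38933 a region lay at or next to the start in all 3 libraries, and at Ccl12 none lay there at 0 h or 72 h. Each is the 250 bases before the annotated start, 5′ to 3′ on the strand of the gene, from RefSeq on GRCm38.p6, the assembly of mm10. The positions are chr11:83649379-83649628 on the minus strand for Ccl3, chr11:83593088-83593337 on the minus strand for Ccl6, chr11:83578637-83578886 on the minus strand for Ccl9, chr11:83604816-83605065 on the minus strand for Gm38933 and chr11:82101595-82101844 on the plus strand for Ccl12. Capitals mark matches on either strand to 6 short motifs: GAGGAA for ETS factors such as PU.1, TTGCNNAA for C/EBP, TGANTCA for AP-1, TGTGGT for RUNX, GGGA and CC with 4 bases of any kind between them for NF-kB, and 2 copies of GAAA with 2 bases of any kind between them for IRF.
Ccl3: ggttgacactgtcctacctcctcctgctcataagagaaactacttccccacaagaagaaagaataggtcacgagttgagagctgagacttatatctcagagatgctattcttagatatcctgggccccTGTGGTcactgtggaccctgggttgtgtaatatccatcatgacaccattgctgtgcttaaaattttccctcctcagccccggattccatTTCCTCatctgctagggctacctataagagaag
Ccl6: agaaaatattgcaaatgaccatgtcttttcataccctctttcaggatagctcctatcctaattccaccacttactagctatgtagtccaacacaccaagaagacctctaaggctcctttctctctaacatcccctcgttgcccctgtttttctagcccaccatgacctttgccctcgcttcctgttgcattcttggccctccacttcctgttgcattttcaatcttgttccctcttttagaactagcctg
Ccl9: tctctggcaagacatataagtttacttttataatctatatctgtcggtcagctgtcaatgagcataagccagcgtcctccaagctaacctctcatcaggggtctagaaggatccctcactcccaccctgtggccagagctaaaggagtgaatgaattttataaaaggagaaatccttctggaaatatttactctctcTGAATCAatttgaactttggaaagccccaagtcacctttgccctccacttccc
Gm38933: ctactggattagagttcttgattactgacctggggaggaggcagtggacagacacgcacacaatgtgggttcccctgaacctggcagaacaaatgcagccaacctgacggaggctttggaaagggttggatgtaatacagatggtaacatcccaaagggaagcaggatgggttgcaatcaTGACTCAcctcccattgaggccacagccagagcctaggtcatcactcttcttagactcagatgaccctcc
Ccl12: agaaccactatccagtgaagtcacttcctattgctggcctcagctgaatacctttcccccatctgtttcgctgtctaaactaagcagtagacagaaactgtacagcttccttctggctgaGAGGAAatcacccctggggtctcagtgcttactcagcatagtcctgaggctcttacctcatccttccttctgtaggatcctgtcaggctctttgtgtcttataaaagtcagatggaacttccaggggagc

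Of the 10 genes, 5 had a sequence in the table (Ccl3, Ccl6, Ccl8, Ccl9 and Ccl12). The ETS letters stood in 3 of the 5 (Ccl3, Ccl8 and Ccl12), against 23.3% of all 32851 windows of the same length. The AP-1 letters stood in Ccl9 alone of the 5, against 6.75% of all windows, and the RUNX letters in Ccl3 alone, against 14.0%. The C/EBP, NF-kB and IRF letters stood in 0 of the 5, with 9.56%, 17.6% and 2.98% over all windows. No searched letters overlapped one another in the printed sequences, and Ccl6 held none of the 6 motifs in this window. A match is only a run of letters.

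The whole lists set the frame for the numbers that follow. They held 182233, 178055 and 145044 regions at 0 h, 6 h and 72 h, so the list at 72 h had 0.796 times as many regions as that at 0 h. On chromosome 11 the ratio was 0.808. Each region carries a fold, which is the height of its summit relative to a background, and a −log10 q, both the authors' values. The lowest fold listed was 3.01 to 3.12, and a locus with no region can hold signal below that. A region is called strong when its −log10 q is at or above the median of its library. Of the 10 myeloid progenitor markers, such as Spi1 and Cebpa, 9, 9 and 8 had a region within 1 kb of a gene end in the order of time, and Mpo had none in any library. So did 4, 3 and 3 of the 5 lymphoid markers and 4, 3 and 2 of the 5 markers of tissues other than blood. The share over all coding genes was not taken, so these counts do not set the progenitor markers apart.

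The 2 segments held very different numbers of regions. The 5 genes from Ccl5 to Ccl4 held 48, 51 and 60 regions at 0 h, 6 h and 72 h. The 5 genes from Ccl2 to Ccl8 held 5, 5 and 1. For all 10 genes the number at 72 h was 1.15 times that at 0 h, with an exact 95% interval from counting error of 0.783 to 1.70, against 0.839 (0.832 to 0.845) within 20 kb of any coding gene. At 6 h it was 1.06 times (0.713 to 1.57), against 0.981 (0.974 to 0.989). These intervals treat the 2 numbers of a ratio as independent counts. They are not, since only 9 of the 53 regions at 0 h had no overlap at 72 h. At 72 h the ratio was 1.25 (0.841 to 1.87) for the 5 genes from Ccl5 to Ccl4 and 0.200 (0.00423 to 1.79) for the 5 from Ccl2 to Ccl8, so the interval of the second holds the value of the first. The ratio for all 10 genes was 1.79 (1.06 to 3.09) when only regions whose −log10 q reached 10 were counted. No ratio over all coding genes was taken at that cut-off, and the 0.839 above, for regions of any strength, is not its counterpart. The genes were selected on these numbers, and nothing is read from where the intervals lie. Between the 2 segments, chromosome 11 held 175, 178 and 159 regions.

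**Figure D1:**
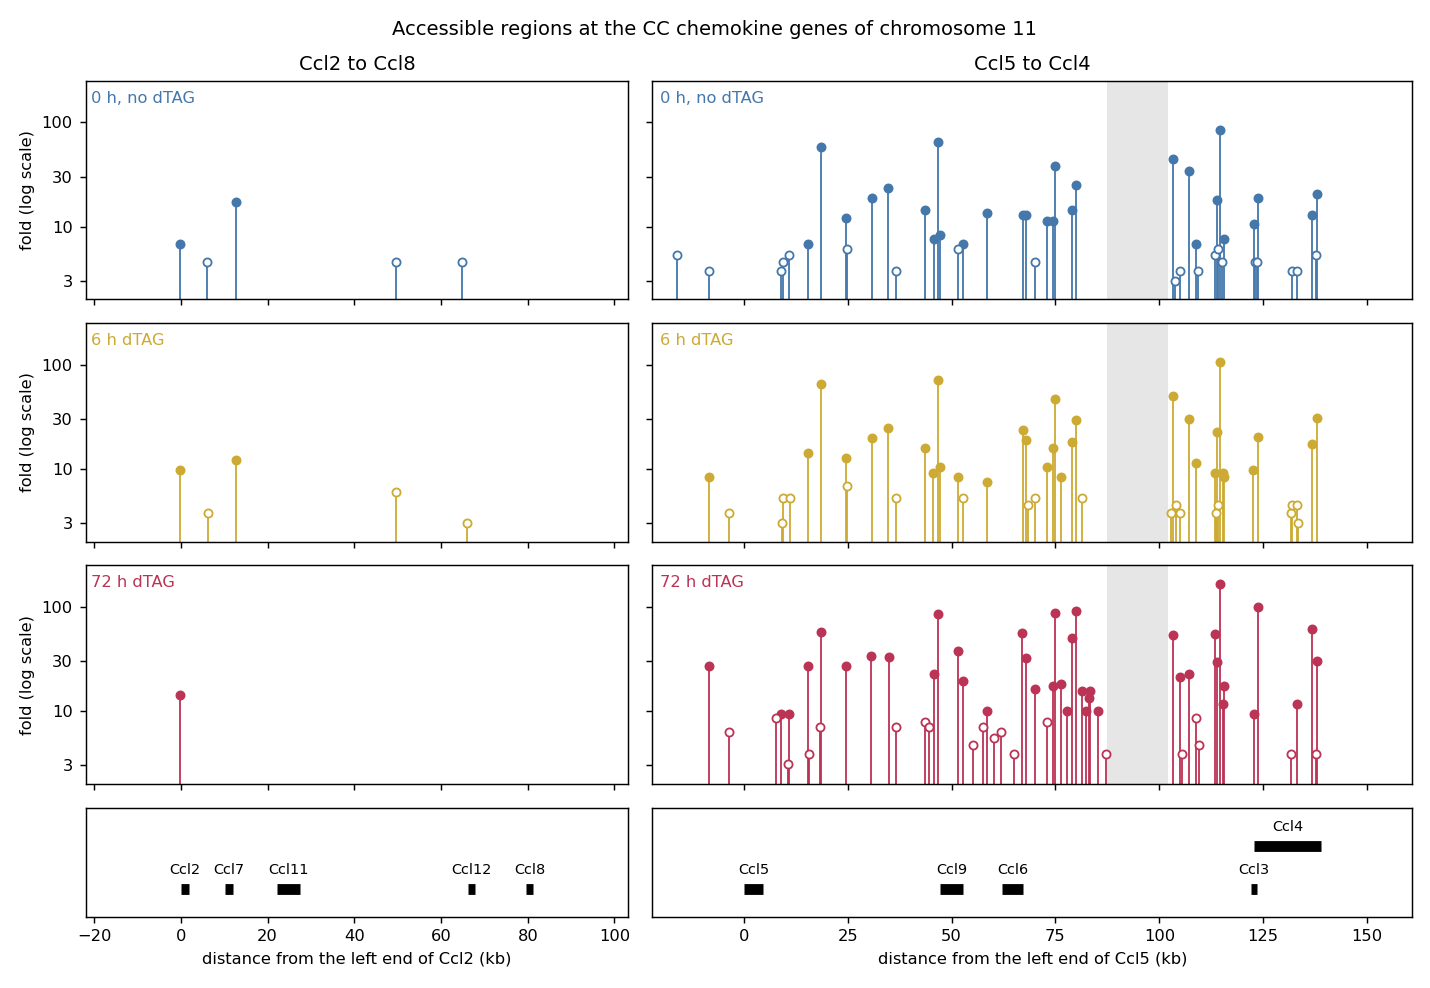
Accessible regions assigned to the 10 genes in each library, with the Ccl2 to Ccl8 segment on the left and the Ccl5 to Ccl4 segment on the right. The horizontal axis is the distance in kb from the left end of Ccl2 or Ccl5, the vertical axis is the authors' fold on a log scale, filled points are strong regions and open points the others, black bars are gene spans, and the grey band lies outside all windows. The left segment holds 5, 5 and 1 regions, the right 48, 51 and 60, and at 72 h a run of regions fills the stretch to the right of Ccl6.

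The regions of these genes were longer and higher at 72 h than the change in their number shows. The covered length was 10004, 11016 and 15480 bp in the order of time, 1.55 times as much at 72 h as at 0 h, while the whole list covered 0.876 times as much. The mean region length was 189, 197 and 254 bp for these genes and 187, 192 and 206 bp over the whole lists. It was 194, 207 and 310 bp at Ccl3 and 223, 212 and 405 bp at Ccl4. At Ccl6 it did not rise, with 222, 206 and 215 bp, and the median fold there was 12.9, 13.2 and 13.3. Strong regions numbered 30, 34 and 41, which is 56.6%, 60.7% and 67.2% of the regions of these genes, against 54.0%, 52.1% and 52.4% of the whole lists, where ties at the median put the share above the middle. Regions of fold 10 or more numbered 23, 24 and 38, or 43.4%, 42.9% and 62.3%, against 36.6%, 39.0% and 49.5% of the whole lists. By these values the 6 h library lay closer to the 0 h library than to the 72 h library.

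**Figure D2:**
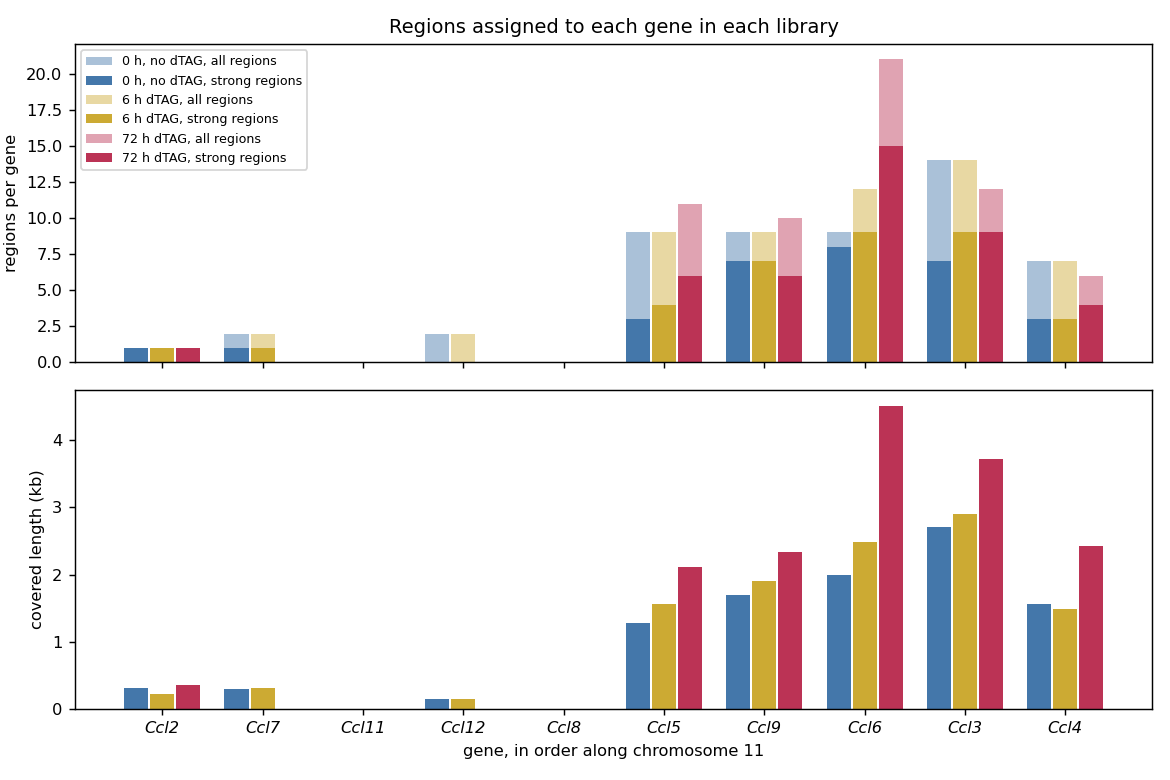
Regions (upper bars, number per gene, strong regions in full colour and all regions in pale colour) and covered length in kb (lower bars) for each of the 10 genes in the 3 libraries, ordered along chromosome 11. Ccl6 has 9, 12 and 21 regions, and the covered length at 72 h is the highest of the 3 libraries at Ccl5, Ccl9, Ccl6, Ccl3 and Ccl4.

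Ccl6 held 9, 12 and 21 regions at 0 h, 6 h and 72 h, and its covered length was 1999, 2477 and 4517 bp. Its strong regions numbered 8, 9 and 15. It was the gene with the largest difference in region number of the 10. Counting every region in its own window, shared ones included, Ccl6 held 15, 18 and 28. A surplus of at least 13 regions at 72 h over 0 h was found at 0.209% of the 19663 coding genes with any region in their window, and Ccl6 was chosen with this known.

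Strong regions gained by 72 h, meaning strong at 72 h with no region of any strength overlapping at 0 h, numbered 7 of the 41 strong regions of the 10 genes, or 17.1%, against 7.21% over all strong regions at 72 h. All 7 belonged to Ccl6 and lay within 9.06 kb of each other, from chr11:83602059-83602229 to chr11:83610923-83611114. This stretch lies on the side of Ccl6 toward Ccl3, and all 7 lie inside the noncoding gene E230016K23Rik, which also spans Ccl6. The stretch held 2, 4 and 9 regions in the order of time. Its ends are those of the first and last gained regions, so more regions at 72 h than at 0 h follow from how it was drawn.

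The folds of the 7 gained regions ran from 10.1 to 18.0, around the median of 12.5 of all strong regions gained at 72 h. The highest, chr11:83602059-83602229, was listed at 6 h with a fold of 8.29 and at 72 h with 18.0. The region at chr11:83607130-83607242 was listed at 6 h with a fold of 5.27 and at 72 h with 15.6. The other 5 had no region at 6 h, so 2 of 7 were already listed there, against 44.9% of all strong regions gained at 72 h. One of them, chr11:83608959-83609075, had a fold of 15.6, and the remaining 4 had folds of 10.1 to 13.3. With windows of 10 kb in place of 20 kb only 1 gained region remained, because the others lie more than 10 kb from the gene span.

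The 2 regions of this stretch that were listed in all 3 libraries also stood much higher at 72 h. At the start of Gm38933, whose upstream bases are printed above, the region had folds of 14.4, 18.1 and 50.7 in the order of time. The region next to it had folds of 24.9, 29.4 and 90.6, and at 72 h, as chr11:83605339-83605876, it was the highest region assigned to Ccl6. Both values at 72 h are above those of the other libraries, and 0 h and 6 h lie close together.

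At the start of Ccl6 itself the region had a fold of 12.9 at 0 h (chr11:83592948-83593203), 23.4 at 6 h (chr11:83592741-83593207) and 56.2 at 72 h (chr11:83592435-83593175). It covered 116, 120 and 88 of the 250 printed bases, the rest lying inside the gene. A second region just upstream had folds of 12.9, 18.8 and 32.0. At both, the 6 h value lay between those of the other libraries. In contrast, the region at chr11:83584319-83584497 had a fold of 13.6 at 0 h, 7.54 at 6 h and 10.1 at 72 h.

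Ccl9, the close relative of Ccl6 on its left, held 9, 9 and 10 regions with a covered length of 1698, 1905 and 2341 bp. Its highest region, just beyond the gene end that lies away from its start, was high in every library, with folds of 65.0, 70.8 and 85.9. The region at its start had a fold of 6.80 at 0 h, 5.27 at 6 h and 19.5 at 72 h. It lay within the transcribed side, and of the 250 printed upstream bases it covered 0, 0 and 25. A region inside the gene, 1 kb or more from the start, had folds of 6.05, 8.29 and 37.5. The start region and this region inside Ccl9 were thus low at 0 h and 6 h and higher at 72 h, while the region beyond the gene end was high throughout.

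Ccl9 also held the 1 strong region of this segment that was lost by 72 h, chr11:83573007-83573127, inside the gene, with folds of 8.32 and 10.5 at 0 h and 6 h. The region at chr11:83569344-83569556 had folds of 14.4, 15.8 and 7.81. Over all 10 genes 2 of 30 strong regions, or 6.67%, were lost by 72 h, against 15.7% of all strong regions at 0 h. At 6 h 0 of 30 were lost, against 2.48% over all. Counting error would allow a share of up to 10.0% if regions were independent draws, which neighbouring regions of 1 library are not. At 6 h 1 of 34 strong regions was gained, or 2.94%, against 1.71% over all. Few strong regions of these genes were lost, and the gains lay to the right of Ccl6, most of them more than 10 kb from its span.

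Ccl3 and Ccl4 lie side by side, and the annotated span of Ccl4, which includes a predicted transcript, overlaps Ccl3. The rule therefore gives the region at the Ccl3 start to Ccl4, and the 2 genes are best read together. Ccl3 held 14, 14 and 12 regions and Ccl4 7, 7 and 6, yet their covered lengths were 2714, 2902 and 3722 bp and 1563, 1481 and 2430 bp. Fewer and longer regions thus stood at 72 h, and part of the lower number is pieces joined rather than places lost. The loci chr11:83639874-83640752, chr11:83648227-83648758 and chr11:83648940-83650026 were each listed as 2 pieces at 0 h and 1 at 72 h.

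The region over the start of Ccl3 had a fold of 18.9 at 0 h, 20.3 at 6 h and 99.1 at 72 h. It covered all 250 printed bases in each library, and it ran from 83649321 to 83649882 at 0 h and from 83648940 to 83650026 at 72 h. If the fold is the number of fragments at the summit plus 1 over the background plus 1, the summit held 24 fragments at 0 h (exact Poisson 95% interval 15.4 to 35.7), 26 at 6 h (17.0 to 38.1) and 126 at 72 h (105 to 150). These intervals cover counting error only, and by the same reading the backgrounds were 0.323, 0.327 and 0.281 fragments. The genes were selected on these folds and the depth of the libraries is unknown, so nothing is read from where these intervals lie.

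Within the Ccl4 span, a region at chr11:83662139-83662726 at 72 h had a fold of 61.7, with 12.9 at 0 h and 17.3 at 6 h. A region nearer the right end of Ccl4 had folds of 20.4, 30.9 and 30.4. The first stood apart at 72 h, and the second was at about the same fold at 6 h and 72 h.

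The highest region of all 10 genes lay between Ccl6 and Ccl3, downstream of Ccl3, with a fold of 84.7 at 0 h (chr11:83640122-83640706), 105 at 6 h (chr11:83640120-83640744) and 167 at 72 h (chr11:83639892-83640752). By the same reading of the fold, its summit held 111 (91.3 to 134), 139 (117 to 164) and 213 (185 to 244) fragments. A neighbour at chr11:83638925-83639333 at 72 h had folds of 5.29, 9.04 and 54.6. The first was already high before dTAG, whereas the second was near the lowest listed folds at 0 h. Other regions downstream of Ccl3 went the other way or stayed level: chr11:83632844-83633056 had folds of 34.0, 30.1 and 22.6, and chr11:83628778-83629258 had 44.6, 50.5 and 53.9.

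Ccl5, which encodes RANTES, held 9, 9 and 11 regions, but 0 of them touched the gene or lay within 1 kb of its ends in any library. The regions flank it on both sides, and its highest one lay away from the gene at chr11:83544290-83544561 with folds of 58.2, 65.6 and 57.0. Another at chr11:83517273-83517400 at 72 h had folds of 3.78, 8.29 and 27.3 and lies inside the neighbouring gene Heatr9. A further one at chr11:83541036-83541244 had 6.80, 14.3 and 27.3. The noncoding gene Gm32650 spans Ccl5 and all the regions named here, and 6, 7 and 10 of the regions of Ccl5 touch it. The strongest flanking region of Ccl5 was level in the 3 libraries, and the others named stood in the order 0 h, 6 h, 72 h.

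The Ccl2 to Ccl8 segment held few regions in these cells. Ccl2, the main chemoattractant of monocytes, held 1 region in each library, at its left end, with folds of 6.80, 9.80 and 14.1 in the order of time. It was the only region of the 5 genes at 72 h. Ccl7 held 2, 2 and 0 regions in the order of time. The higher one, chr11:82048140-82048332, just beyond the right end of Ccl7, had folds of 17.4 and 12.1 at 0 h and 6 h, and it was the other strong region of the 10 genes lost by 72 h. Its summit held 22 (13.8 to 33.3) and 15 (8.40 to 24.7) fragments by the reading above, against a lowest listed summit of 3.

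Ccl12 held 2, 2 and 0 regions, all weak, with folds of 3.01 to 6.03. At 6 h one of them, with the lowest fold of that list, reached 8 of the 250 printed bases before the Ccl12 start. Ccl11 and Ccl8 held 0 regions in all 3 libraries, and the nearest region to the start of Ccl8 was 14756 bp away at 0 h. Over all regions at 0 h, of any strength, 40.2% had no overlap at 72 h and 23.4% none at 6 h. Of the 5 regions of this segment at 0 h, 4 had no overlap at 72 h, and 3 of those 4 were weak. Over all weak regions at 0 h, 68.9% had no overlap at 72 h.

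Ranks allow a comparison on a common set of loci, those listed in all 3 libraries. Which loci enter still depends on the lists, and loci missing from any list are left out. Of the 75 loci formed by overlapping regions of the 10 genes, 39 were listed in all 3 libraries, 38 of them in the Ccl5 to Ccl4 segment. Each was ranked by fold within its library among the 98083 loci of the genome listed in all 3, from 0 for the lowest to 100 for the highest. At 72 h 26 of the 39, or 66.7%, stood at least 10 points higher than at 0 h, against 27.0% of all such loci. At least 10 points lower stood 4 of the 39, or 10.3%, against 29.1%. The median rank of the 39 was 42.2, 44.6 and 68.6 in the order of time, and the median change from 0 h to 72 h was 23.3 points, against −0.917 over all loci. These ranks come from the same contrast that led to the choice of the genes and support nothing further.

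At 6 h 10 of the 39 stood at least 10 points higher, or 25.6%, against 15.5%, and 2 stood at least 10 points lower, or 5.13%, against 15.7%. The median change at 6 h was 2.44 points, against 0 over all loci. An order with 6 h above 0 h and 72 h above 6 h was found at 21 of the 39, or 53.8%, against 23.0% of all loci. By gene this order held at 7 of 9 loci of Ccl6, 5 of 10 of Ccl3, 3 of 5 of Ccl4, 3 of 8 of Ccl9 and 2 of 6 of Ccl5. Loci of 1 gene share their library and are not replicates.

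The largest change in rank was at the region downstream of Ccl3 described above, chr11:83638925-83639333, with ranks of 11.4, 29.8 and 83.7 in the order of time. The region inside Heatr9 went from 2.65 to 26.2 and 68.6. The region inside Ccl9 went from 16.4 to 26.2 and 76.2. The start region of Ccl3 stood at 61.7, 62.0 and 92.8, and that of Ccl6 at 47.2, 66.6 and 84.2. These loci were thus low or middling before dTAG and among the higher ones of the genome at 72 h. The 4 loci at least 10 points lower at 72 h than at 0 h were those at chr11:83632844-83633056, chr11:83569344-83569556, chr11:83584319-83584497 and chr11:83598546-83598737, with changes of −15.5, −23.5, −11.8 and −14.2 points.

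**Figure D3:**
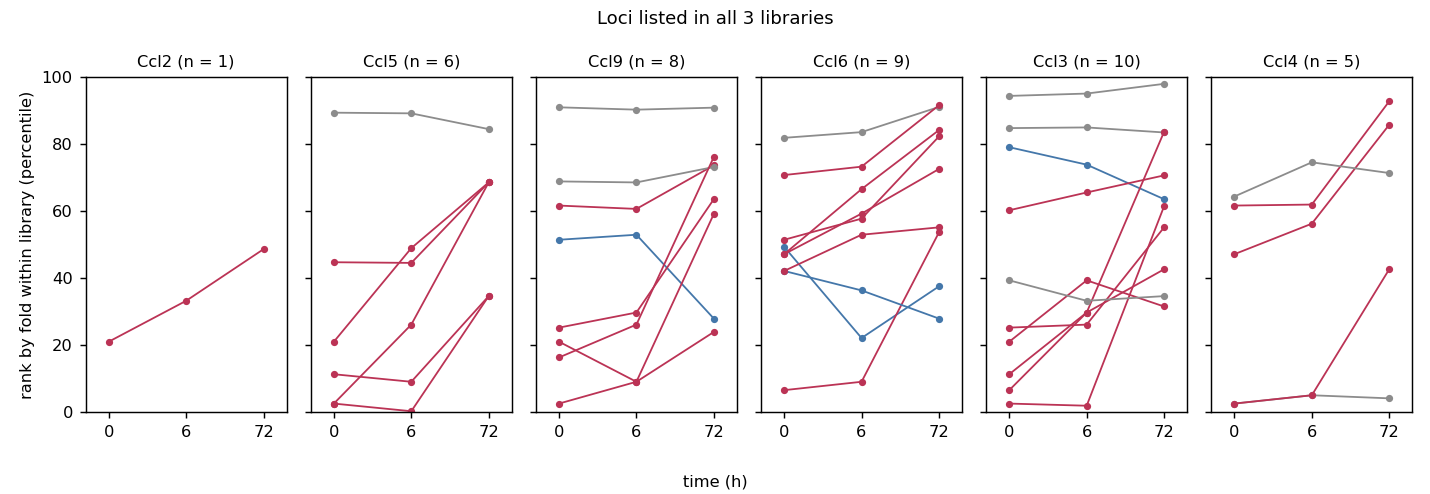
Rank by fold (percentile within each library among the 98083 loci listed in all 3) of the 39 loci of these genes against time in h, one panel per gene and one line per locus. Red lines end at least 10 points higher at 72 h than at 0 h (26 loci), blue lines at least 10 points lower (4 loci), and grey lines lie between.

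Other chemokine genes showed no common direction. Counting the regions of each gene in its own window of 20 kb, so that neighbours share some, 2 of 11 other CC ligands had a surplus at 72 h over 0 h and 7 held fewer. Over all coding genes with a region 22.2% held more and 64.8% fewer. Ccl26 and Ccl24, eotaxin relatives on another chromosome, held 6, 10 and 13 and 5, 9 and 10 regions. Ccl25, a ligand of thymus and gut, held 18, 14 and 12, and Ccl1, which follows Ccl8 on chromosome 11, held 8, 8 and 4.

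Among 14 CC receptor genes, 7 held more regions at 72 h and 7 fewer. Ccr1, a receptor of Ccl6 and Ccl9, held 8, 10 and 13 regions. Ccr2, the receptor of Ccl2, held 10, 9 and 8. Ccrl2, an atypical receptor, held 17, 14 and 22, and Ccr4 17, 17 and 10. Among 15 other chemokine ligands, 8 held more and 6 fewer, from Cxcl16 with 11, 14 and 16 to Cx3cl1 with 13, 12 and 6. By the same count the 10 genes described here held more in 3 cases and fewer in 7, close to the share over all coding genes. Of the 7, Ccl3 and Ccl4 share regions and each held 21, 21 and 18, a number lowered by the joined pieces described above. The others are the 5 genes from Ccl2 to Ccl8, which held at most 3 regions each, some of them shared. At 6 h 2 of the 10, Ccl6 and Ccl9, had a surplus over 0 h, against 35.8% of coding genes, and 0 held fewer, against 43.5%.

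**Figure D4:**
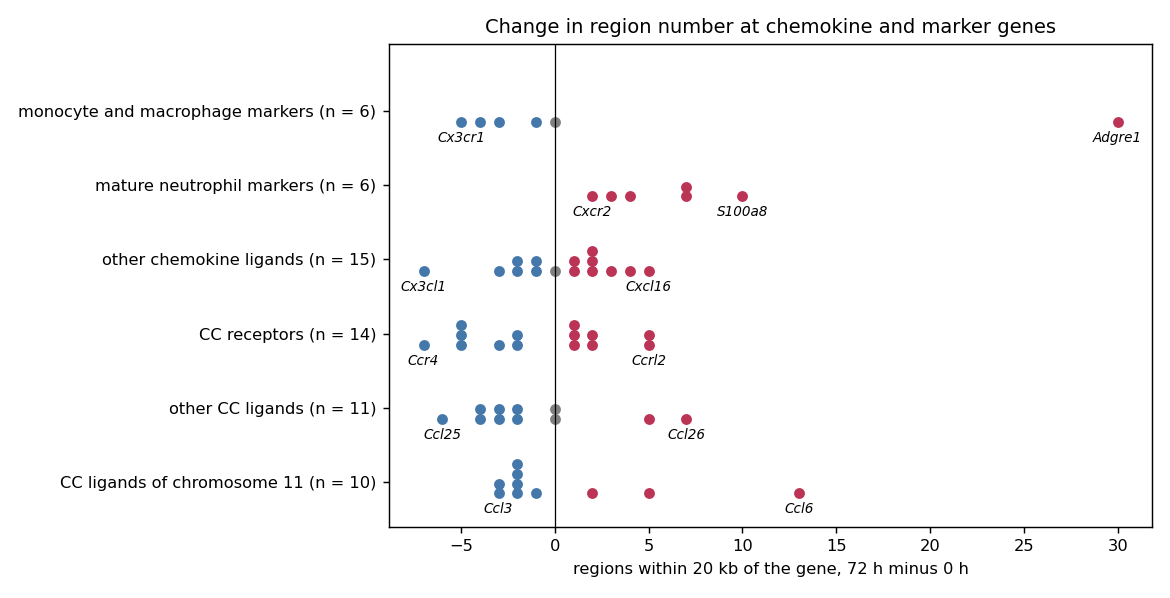
Difference in the number of regions within 20 kb of each gene between 72 h and 0 h, one point per gene, for the 10 CC ligand genes of chromosome 11 described here, 3 lists of other chemokine genes and 2 lists of marker genes. Points right of 0 hold more regions at 72 h. Ccl6 lies at 13, and all 6 mature neutrophil markers lie right of 0.

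Markers of maturing myeloid cells also differed between the libraries. The 6 mature neutrophil markers held 65, 74 and 98 regions in the order of time, with more at 72 h in 6 of 6. S100a8 held 11, 12 and 21. The 6 monocyte and macrophage markers held 72, 71 and 89, with more in 1 of 6, Adgre1 at 21, 21 and 51, and fewer in 4, with Marco at 5, 3 and 1. The 10 myeloid progenitor markers held 219, 223 and 179, with more at 72 h than at 0 h in 1, fewer in 6 and the same number in 3. The sum at 72 h was 0.817 times that at 0 h, against 0.850 over all coding genes. Ptprc held 26, 24 and 41, Spi1 35, 32 and 35, Mpo 18, 31 and 8, and Kit, the stem cell factor receptor, 7, 6 and 0. The largest falls of this list were at Prtn3, with 36, 34 and 18, and Elane, with 35, 33 and 19, both on chromosome 10. The 5 lymphoid markers held 60, 48 and 37, the 5 erythroid and mast cell markers 36, 37 and 24, and the 5 markers of tissues other than blood 42, 34 and 19. The part of these marker values in the result at the chemokine genes was not tested.

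By region number in the 3 libraries, the coding genes outside these windows most like Ccl6 were Taz on chromosome X with 15, 20 and 28 regions, Esyt2 on chromosome 12 with 14, 18 and 26, and F5 on chromosome 1 with 18, 18 and 27. The sums of absolute differences from Ccl6 were 2, 3 and 4 regions.

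The window of 20 kb decided a few regions. Just inside it lay chr11:83612805-83612881 near Ccl6, listed at 72 h alone with a fold of 3.90, and the locus chr11:83550141-83550674 near Ccl5, with folds of 12.1, 12.8 and 27.3. Just outside lay chr11:82015183-82015388, with folds of 6.05, 4.52 and 9.37, left of Ccl2, and chr11:83552358-83552492, left of Ccl9, listed at 0 h alone with a fold of 6.05.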

How the data were processed

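The authors deposited 1 list of accessible regions per library, called separately. The submitters' processing notes name BWA 0.7.17, MACS2 2.2.7 and bedtools 2.30.0 and the build mm10, without options. The treatment of duplicates, fragment sizes and read ends is not given in the sources used here. The deposited lists give for each region a position, a summit fold (a ratio over the peak caller's background), a −log10 p-value and a −log10 q-value. Each fold is the authors' own value for that region, and folds of different libraries are set side by side without a test.

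Read totals were not used here, so the depth is unknown. All folds, 100% per list, were whole multiples of 1 step to within 0.01 of it, from which summit fragments were read.

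Regions within 20 kb of a member's span (RefSeq, GRCm38.p6) were given to the gene whose span was nearest to the region's midpoint, ties by the nearer gene end. Regions of 2 lists matched at 1 bp of overlap. Overlap, assignment and counting were checked on simulated lists (Python 3.11.15, pandas 2.3.3, scipy 1.17.1). All 10 members are named, with the highest region of each gene, all strong regions gained or lost and, for related genes, the largest differences; further regions were picked after their values were seen. One gene of the receptor list is not reported here. The members, gene lists, motifs and alternatives were chosen with earlier results of these data known.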

Additional observations from a re-analysis of the deposited data

How the results depend on the processing

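The region number of the 10 genes at 6 h over 0 h was at most 1.38 and not below the number at 0 h with windows of 10 or 50 kb, a fold of at least 10, a −log10 q of at least 10, equal-sized lists, or regions closer than 150 bp merged, all inside the counting interval of the reported ratio. The ratio at 72 h over 0 h stayed above 1 under these settings, between 1.06 with windows of 10 kb and 1.79 (1.06 to 3.09) with a −log10 q of at least 10, where the regions numbered 24 and 43. That last value lay above the interval of the reported ratio, and no ratio over all coding genes is given at that cut-off. Strong regions gained at 72 h numbered 7 to 9 under the other settings and 1 with windows of 10 kb. Strong regions lost at 72 h numbered 1 instead of 2 with a fold of at least 10, and those gained at 6 h numbered 0 instead of 1, because the regions concerned had lower folds. No paired analysis was possible because each group held 1 library. The lowest listed summit of 3 fragments limits what can be seen at Ccl11, Ccl8 and Ccl12.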

Other observations

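Beyond the windows of 20 kb, several places next to these genes held regions that only the windows of 50 kb take in. The 2 places with the highest folds at 72 h are described here. Elsewhere the folds were lower, such as 6.80, 4.52 and 3.90 at chr11:81996302-81996429, left of Ccl2. Between the windows of Ccl6 and Ccl3, over 14.8 kb, there were 4, 4 and 6 regions in the order of time. The locus chr11:83616473-83617007 there had folds of 46.9, 73.1 and 103, and chr11:83615607-83615762 was listed at 72 h alone with a fold of 22.6. Another locus of this stretch, chr11:83619130-83619296, had folds of 22.7, 24.9 and 18.7. To the right of Ccl4, at the left end of Wfdc17, which encodes a small secreted protein with a whey acidic protein domain, a region at chr11:83703661-83704109 had a fold of 46.8 at 72 h, and no region was listed there at 0 h or 6 h.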
